A study of Mus musculus with 47 samples.

Results

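Muscle fibres lie in a scaffold of collagen and other matrix proteins, and 41 genes that build, process or mark this scaffold and the tendon it runs into were followed here in mouse muscle. They were taken by name, through their Ensembl IDs, from the 13500 genes of the deposited expression table, where all 41 were found. All 41 were among the 12000 genes that passed the filter on low values. By role they were 6 fibrillar collagens, 3 chains of collagen VI, 10 basement membrane genes, 4 small leucine-rich proteoglycans, 8 matrix glycoproteins and matricellular genes, 6 genes of matrix processing, and 4 tendon or fibroblast genes.

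Fibrillar collagens I, III and V form the load-bearing fibres between muscle fibres, and collagen VI forms fine filaments that tie them to the cell surface. Each muscle fibre and capillary is wrapped in a basement membrane, a thin sheet of collagen IV, laminins, nidogens and the heparan sulphate proteoglycan perlecan. Fibroblasts of the connective tissue make most of the fibrillar collagens, whereas muscle fibres, endothelial cells and pericytes also add basement membrane proteins. Glucocorticoids, the steroid hormones of the adrenal cortex, are known to lower collagen synthesis in several connective tissues.

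The 47 libraries were made from the tibialis anterior, a fast muscle of the shin, of female C57BL/6 mice fed ad libitum. Tissue was taken at ZT0 or ZT12, with ZT the time in hours since the lights came on. Wild-type animals (WT) underwent sham surgery, removal of the adrenal glands (adrenalectomy, ADX), ADX with adrenaline (ADX+ADR, 0.5 mg/kg) or ADX with the synthetic glucocorticoid dexamethasone (ADX+DEX, 5 mg/kg). Both hormones were injected into the peritoneum at ZT12 for 10 days, so in these groups the ZT0 and ZT12 libraries also differ in how long ago the animal was dosed. Without a group given vehicle alone, the hormone and the injection cannot be told apart. The RE-RE genotype combined Bmal1(stopFL/stopFL), a blocked allele of the clock gene Bmal1, with Syt10-Cre(-/tg) and Hsa-Cre(-/tg), which restore the gene in brain and in skeletal muscle, the latter from the human skeletal actin promoter. These animals underwent sham surgery or ADX alone, and after ADX the drinking water was saline with glucose. There were 4 libraries in each of 11 groups and 3 in the remaining one, WT ADX at ZT0. Ages ran from 9 to 12 weeks in WT sham, 12 to 17 in ADX of that genotype, 13 to 14 with adrenaline, 11 to 14 with dexamethasone, 9 to 14 in RE-RE sham and 8 to 18 in RE-RE ADX. In what follows ± is an SD over the libraries of a group for a level in FPKM and an SE for a log2 change, a pair of numbers in parentheses is such a change, and an adjusted p is limma's with Benjamini-Hochberg adjustment over all genes tested.

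The table gives log2 values of FPKM, a read density per length and library depth, with no counts. Depth, estimated from the steps between low values, had a median of 22.1 M reads and ran from 16.0 to 35.6 M. In the other genes examined, these depths gave whole reads about as often as chance does, so the estimate had no support there. A value of exactly 0 was listed for 1.59% of all values, and since genes that are abundant elsewhere carry it, it is called listed at 0 and not read as absence. Within a group 40 libraries shared 25 to 103 exact low values with another library of their group, while 7 libraries of WT sham and RE-RE groups shared at most 1. P-values measure the spread between these libraries alone. The mitochondrial gene Nnt, which is no member, had a 0 in each of the 7 libraries of WT ADX and in 2 of 4 of WT sham at ZT12, and its part in comparisons with these groups was not tested. The 7 fast fibre markers summed to at least 52791 FPKM in every library. In bulk tissue, fewer cells of a type and less RNA per cell cannot be told apart.

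Among the 41, 16 members were listed at 0 in at least 1 library and 25 in none. All of these zeros lay in WT groups, and most lay in WT ADX+DEX. At ZT0, 12 members had a value at 0 there, and 7 of them were at 0 in all 4 libraries, namely Col1a1, Col1a2, Col3a1, Col15a1, Fn1, Col14a1 and Tnmd. At ZT12, 10 members had a value at 0, and Col1a1, Col3a1, Col15a1, Fn1 and Col14a1 were at 0 in all 4 libraries. Outside the dexamethasone groups, only Postn was at 0 in all libraries of a group, WT sham at ZT12. The 16 RE-RE libraries held no member at 0.

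**Figure D1:**
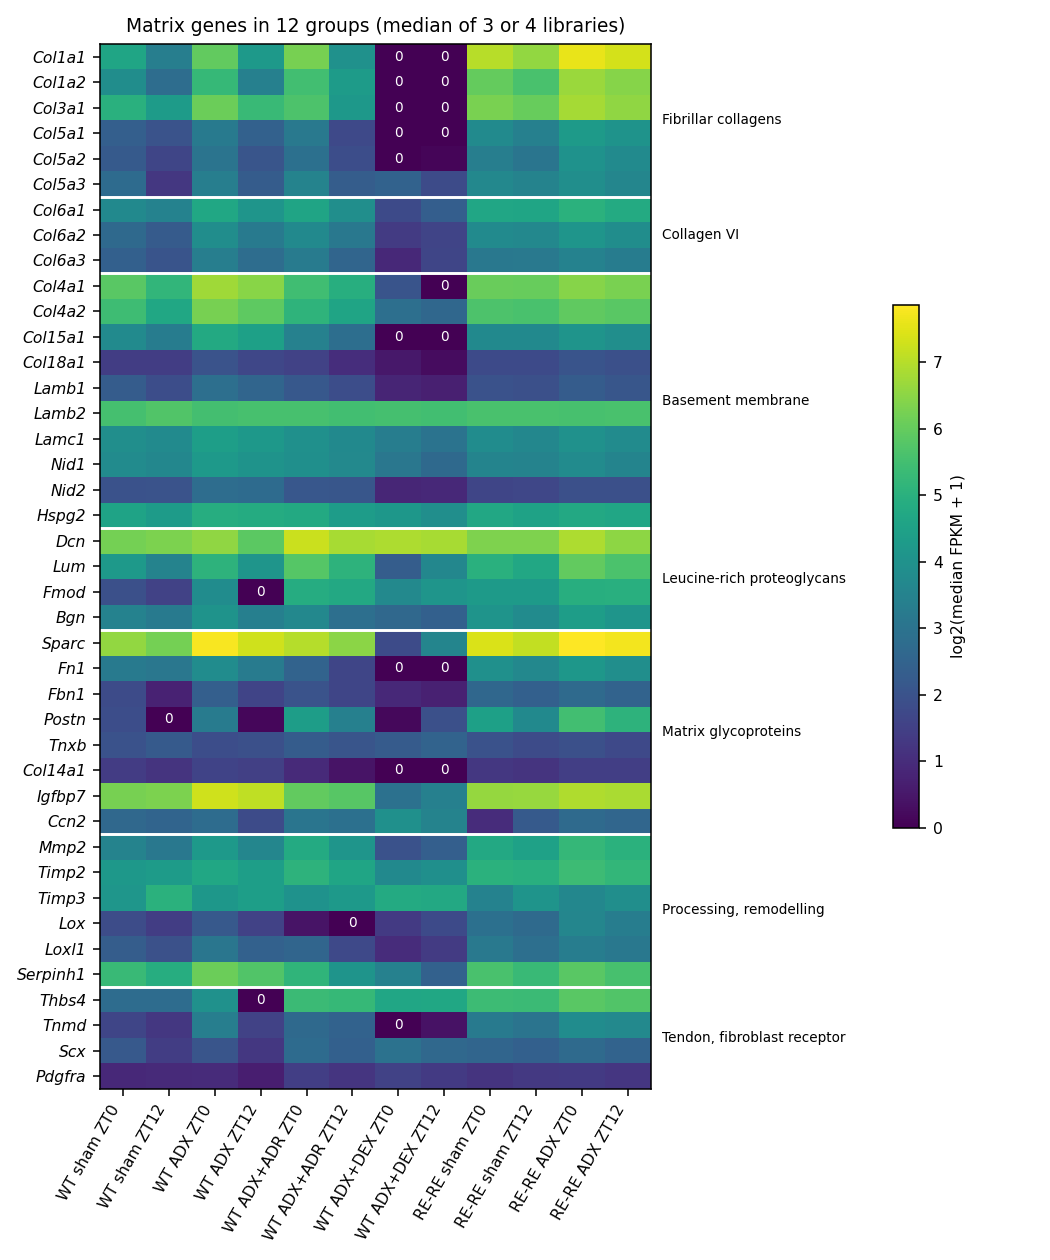
Median level of each of the 41 members (rows, ordered by role) in each of the 12 groups (columns), coloured on a log2(FPKM + 1) scale, with 0 printed where the group median is listed at 0. The 2 WT ADX+DEX columns hold a 0 for Col1a1, Col1a2, Col3a1, Col5a1, Col15a1, Fn1 and Col14a1, and the 4 RE-RE columns hold no 0.

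Col1a1 (ENSMUSG00000001506, chromosome 11, 94936224 to 94953042 on GRCm38) codes for the more abundant chain of type I collagen. Its libraries read 0, 33.2, 50.3 and 13.9 FPKM in WT sham at ZT0 and 6.82, 0, 11.9 and 25.6 at ZT12. WT ADX read 22.1, 61.6 and 117 at ZT0 and 40.6, 0.862, 30.3 and 4.91 at ZT12, and WT ADX+ADR read 28.8, 74.4, 75.4 and 80.2 at ZT0 and 44.4, 0, 21.9 and 7.67 at ZT12. The 8 dexamethasone libraries were all listed at 0, so this group lies below all but 3 other libraries. In RE-RE sham the values were 73.5, 148, 184 and 107 at ZT0 and 96.8, 88.4, 104 and 94.1 at ZT12, and in RE-RE ADX 183, 212, 156 and 198 at ZT0 and 177, 135, 151 and 173 at ZT12. The RE-RE libraries were high throughout, and only 4 WT libraries, 1 of WT ADX and 3 of WT ADX+ADR at ZT0, reached the lowest of them.

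Col3a1 (ENSMUSG00000026043, chromosome 1, 45311538 to 45349706), the type III collagen of elastic tissue, was listed at 0 in the same 8 libraries and nowhere else. In WT sham it read 17.1, 33.3, 51.0 and 27.9 at ZT0 and 16.7, 12.3, 21.0 and 24.8 at ZT12. In WT ADX it read 46.6, 67.6 and 100.5 at ZT0 and 49.2, 24.1, 47.7 and 30.5 at ZT12. With adrenaline the values were 25.9, 49.1, 50.5 and 55.6 at ZT0 and 36.3, 5.72, 8.60 and 25.9 at ZT12, where 2 of 4 libraries lay below every WT sham library. RE-RE sham read 50.5, 82.2, 119 and 69.3 at ZT0 and 61.5, 67.5, 64.6 and 63.4 at ZT12, and RE-RE ADX 107, 124, 95.6 and 114 at ZT0 and 98.6, 79.3, 89.9 and 95.5 at ZT12. RE-RE sham libraries lay above all WT sham libraries at ZT12, whereas at ZT0 the groups overlapped. Col4a1, a chain of the collagen IV network, is encoded head to head with Col4a2 on chromosome 8 (11198423 to 11312826 and 11312805 to 11449287). Its libraries lay at 31.2 to 36.2 in the sham group at ZT12, at 98.0 to 120.3 after ADX at ZT0, and with dexamethasone at 3.43, 2.76, 1.31 and 5.45 at ZT0 and 0.456, 0, 0 and 0 at ZT12.

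A few members were not near 0 with dexamethasone, as Col1a1 and Col3a1 were. Dcn, the proteoglycan decorin that coats collagen fibrils, read 129, 121, 116 and 116 FPKM in the 4 libraries of WT ADX+DEX at ZT0 in which Col1a1 was listed at 0, against 63.5, 72.0, 92.2 and 75.6 in WT sham. Thbs4, a thrombospondin of tendon and muscle attachment, read 23.4, 24.2, 21.4 and 24.7 there, and Fmod, the proteoglycan fibromodulin, 13.5, 11.9, 12.0 and 11.8. Ccn2, the matricellular protein also called connective tissue growth factor, read 12.7, 16.4, 9.51 and 17.3, and its 7 highest values of the study lay in the dexamethasone groups. Lamb2, the laminin beta chain of mature muscle basement membrane, kept to 39.1 to 54.5 FPKM in all 47 libraries.

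**Figure D2:**
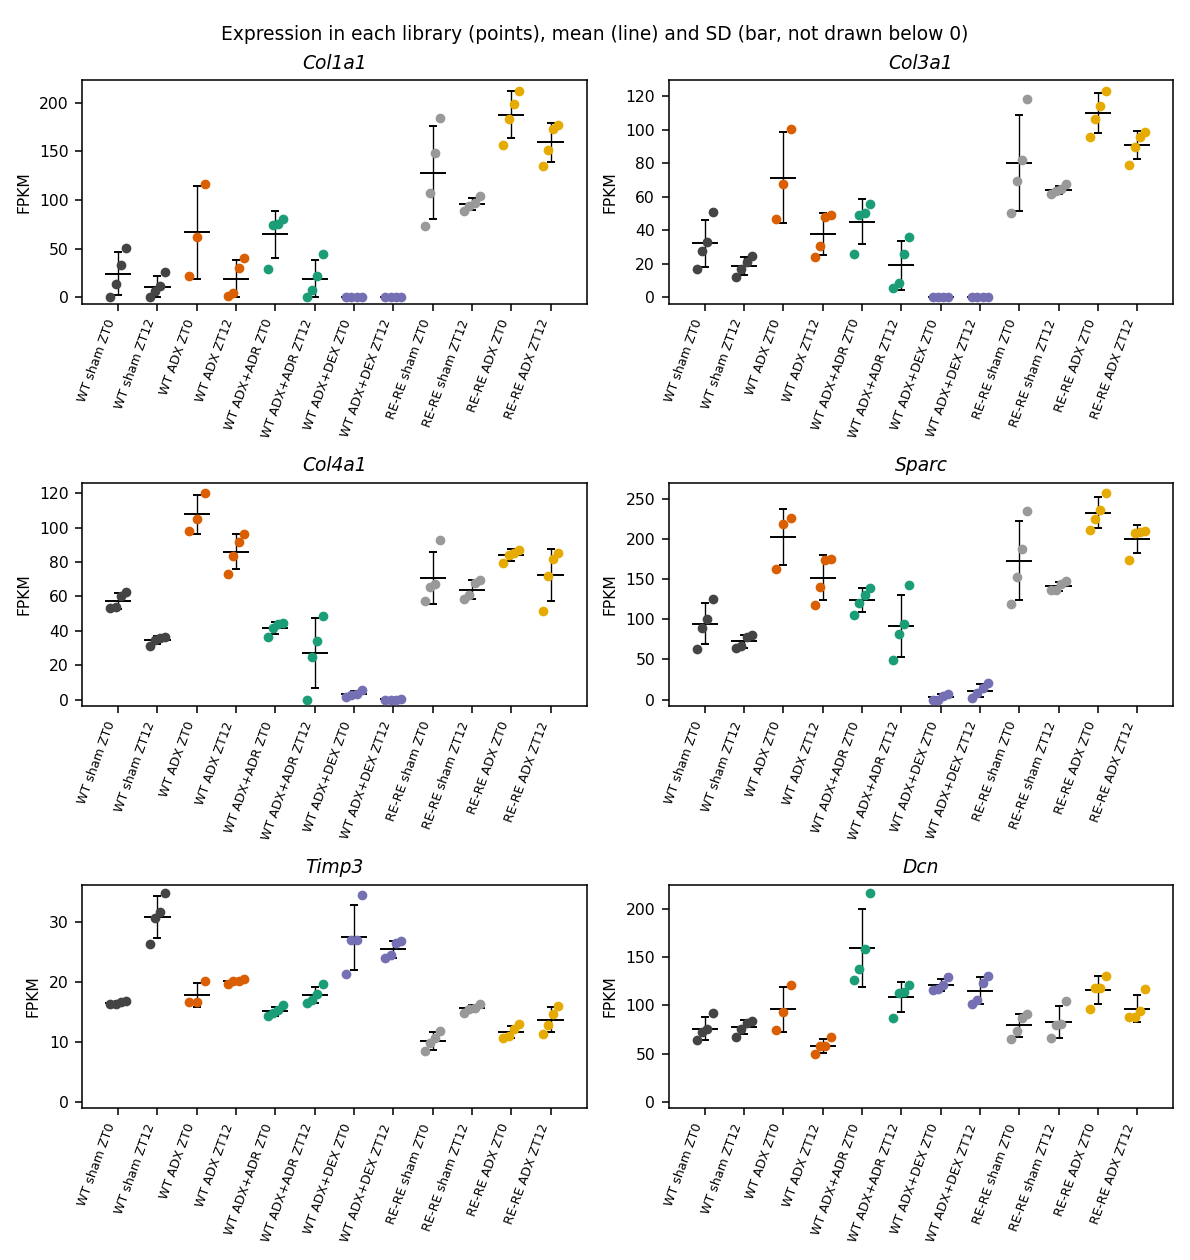
FPKM of Col1a1, Col3a1, Col4a1, Sparc, Timp3 and Dcn in each library (points) of the 12 groups, with the group mean (line) and SD (bar), on linear axes that start at 0. Col1a1 and Col3a1 points lie at 0 in both WT ADX+DEX groups, where Timp3 and Dcn points do not.

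The promoters of a type I and a type III collagen gene and of Timp3, which moved the other way in several comparisons below, are shown for their sequence. They are the 250 bases before the RefSeq start on GRCm38.p6, all on the plus strand. Capitals mark 4 textbook core motifs on either strand, which are CCAAT of the box of that name, GGGCGG of Sp1 sites, CAGAC of SMAD sites and TGTTCT of steroid receptor sites.
Col1a2, chr6:4505368-4505617: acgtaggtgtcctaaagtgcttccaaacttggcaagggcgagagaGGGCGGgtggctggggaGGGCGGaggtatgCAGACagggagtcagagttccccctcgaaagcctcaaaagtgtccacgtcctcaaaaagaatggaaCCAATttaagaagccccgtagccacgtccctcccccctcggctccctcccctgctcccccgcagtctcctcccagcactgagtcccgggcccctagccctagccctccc
Col3a1, chr1:45311288-45311537: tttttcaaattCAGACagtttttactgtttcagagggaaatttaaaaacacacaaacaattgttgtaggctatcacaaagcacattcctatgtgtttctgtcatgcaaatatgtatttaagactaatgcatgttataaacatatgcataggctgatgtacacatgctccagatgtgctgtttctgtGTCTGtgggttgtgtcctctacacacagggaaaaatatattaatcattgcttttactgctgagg
Timp3, chr10:86300162-86300411: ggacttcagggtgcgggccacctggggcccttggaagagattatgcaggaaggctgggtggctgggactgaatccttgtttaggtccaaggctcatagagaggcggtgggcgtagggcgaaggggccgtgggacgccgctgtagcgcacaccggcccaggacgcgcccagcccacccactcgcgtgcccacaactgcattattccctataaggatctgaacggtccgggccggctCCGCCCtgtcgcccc
Col1a2 had 1 CCAAT at 109 bases before the start, GGGCGG at 205 and 188, and CAGAC at 175. Col3a1 had CAGAC at 239 and, on the opposite strand, at 64, and Timp3 had 1 GGGCGG on the opposite strand at 15. None of the 3 windows held TGTTCT. Over all 32851 RefSeq promoters of this length, 33.8% held CCAAT, 32.7% GGGCGG, 42.2% CAGAC and 16.1% TGTTCT. Of the 28 members with a promoter in the table, 8, 16, 16 and 3 held them in at least 1 of their windows. The shares above are per window, so these counts are not of the same measure. Each match describes letters only, and the start used for Col1a2 lies inside the gene's span in the GENCODE annotation (4504814 to 4541544). That used for Timp3 does too (span 86300372 to 86349506), so these windows run into the annotated gene.

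With adrenals intact, 1 member rose and 5 fell from ZT0 to ZT12 in WT sham. Timp3, an inhibitor of matrix metalloproteinases that is bound to the matrix, read 16.7, 16.8, 16.3 and 16.3 FPKM at ZT0 and 34.9, 26.3, 30.6 and 31.7 at ZT12 (0.89 ± 0.10, adjusted p = 5.61e-08), and the groups did not overlap. Col5a3, a minor chain of type V collagen, read 4.01, 5.27, 7.60 and 6.17 at ZT0 and 1.49, 0.473, 1.41 and 1.40 at ZT12 (-2.36 ± 0.23, adjusted p = 8.18e-10). Fbn1, fibrillin-1 of the elastic microfibrils, went from 2.59 ± 0.577 to 0.673 ± 0.167 (-1.94 ± 0.20, adjusted p = 3.54e-09). Again no ZT12 library reached the lowest ZT0 library for either gene. Scx, the tendon transcription factor scleraxis, fell by a smaller amount (-1.0 ± 0.24, adjusted p = 0.00223), as did the laminin chain Lamb1 (-0.57 ± 0.19, adjusted p = 0.024). Postn, the matricellular protein periostin, read 0, 4.54, 5.84 and 0.737 at ZT0 and had a 0 in each of the 4 libraries at ZT12 (adjusted p = 0.0101).

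Of all 12000 genes, 23.5% passed in this comparison, 14.0% higher and 9.5% lower, and the 6 members stand against that background. The median log2 change was -0.35 over the 41 members and -0.30 over the 25 never listed at 0, against 0.01 over all genes. Col1a1 (adjusted p = 0.802), Col3a1 (-0.73 ± 0.36, adjusted p = 0.144), Col4a1, Fn1, Sparc, Ccn2, Thbs4 and Tnmd did not pass. Matrix proteases and their inhibitors outside the 41 had 1 riser and 5 fallers of 9. The Postn call was lost without replicate 3 at ZT0 (adjusted p = 0.0519), and that of Lamb1 without replicate 3 or 4 at ZT0 or 8 at ZT12 (0.0657 to 0.0888). Without the 7 libraries that share few values with their group, 3 members passed instead of 6, and 10.8% of all genes. Endothelial markers had 1 of 10 higher and 2 lower, and their summed level was lower at ZT12, at 169.6 to 188 FPKM at ZT0 and 143 to 154 at ZT12. Macrophage markers had 1 of 10 lower and sums of 27.3 to 36.8 and 23.3 to 25.9. Neither pair of sums overlapped, and the part of these cells in the result was not tested.

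In WT ADX no member rose and 8 fell from ZT0 to ZT12, where 11.0% of all genes passed, 7.64% higher and 3.38% lower. Col5a3 read 9.30, 10.0 and 8.12 FPKM at ZT0 and 4.07, 2.43, 4.15 and 3.72 at ZT12 (-1.37 ± 0.25, adjusted p = 0.000311), and Fbn1 went from 4.07 ± 0.171 to 2.06 ± 0.398 (-1.0 ± 0.22, adjusted p = 0.00229). Both fell without overlap, as in WT sham. Scx (-1.25 ± 0.26, adjusted p = 0.00132), Dcn (-0.71 ± 0.17, adjusted p = 0.0045) and Pdgfra, the receptor that marks muscle fibroblasts (-0.74 ± 0.18, adjusted p = 0.00643), also fell. So did Ccn2 (-1.31 ± 0.43, adjusted p = 0.0424), Col6a2 (-0.78 ± 0.26, adjusted p = 0.0472) and Fmod, which read 3.78, 13.1 and 16.6 at ZT0 and 3.90, 0, 0 and 0 at ZT12 (adjusted p = 0.00441). Timp3, which rose in WT sham, read 16.7, 16.6 and 20.1 at ZT0 and 20.1, 20.6, 20.1 and 19.6 at ZT12 (0.18 ± 0.11, adjusted p = 0.329). The median change was -0.63 over the 41 and -0.56 over the 25 never at 0.

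This set rested on few libraries. Without replicate 3 of WT ADX at ZT0, 4 members passed, and Dcn and Pdgfra were lost (adjusted p = 0.0573 and 0.0678). Ccn2 and Col6a2 were each lost without any 1 of 5 libraries (replicates 1, 2 and 3 at ZT0, 5 and 7 at ZT12; adjusted p = 0.0667 to 0.199 and 0.0668 to 0.2). With age as a covariate Ccn2 and Col6a2 did not pass (adjusted p = 0.108 for both). A model of these 2 groups alone passed 0 members, and 0.367% of all genes.

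The time difference of 1 member differed between WT ADX and WT sham by a test of the difference itself. The change of Timp3 in WT ADX relative to that in WT sham was -0.71 ± 0.15 on the log2 scale (adjusted p = 0.00752), where 1.54% of all genes passed, 0.875% lower and 0.667% higher. For Col5a3, Fbn1 and Scx, which fell in both conditions, this difference was 0.99 ± 0.34, adjusted p = 0.133 for the first, 0.94 ± 0.29, adjusted p = 0.0978 for the next and -0.25 ± 0.35, adjusted p = 0.838 for the last. None of these 3 passed, which does not show that they fell alike. Leaving out replicate 3 of WT sham at ZT0 brought the count from 1 to 3, and leaving out replicate 2 there, replicate 6 of WT sham at ZT12, replicate 1 of WT ADX at ZT0 or replicate 4 of WT ADX at ZT12 brought it to 2.

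Under adrenaline 15 members fell from ZT0 to ZT12 and none rose, where 12.7% of all genes passed, 6.45% lower and 6.28% higher. Basement membrane genes made up 5 of the 15 (Hspg2, Lamc1, Lamb1, Nid1 and Col15a1). Col5a3 read 8.92, 11.3, 9.65 and 11.3 FPKM at ZT0 and 3.97, 4.02, 2.51 and 4.52 at ZT12 (-1.48 ± 0.23, adjusted p = 1.38e-05), again without overlap. Col3a1 fell (-1.57 ± 0.36, adjusted p = 0.00253), with overlap of the groups at the values given above. Serpinh1, the chaperone that folds procollagen, read 27.0, 31.8, 36.6 and 44.2 at ZT0 and 31.0, 15.4, 9.34 and 16.3 at ZT12 (-1.06 ± 0.25, adjusted p = 0.00261). Lox, the enzyme that crosslinks collagen, read 0, 0.148, 0.491 and 1.02 at ZT0 and 0.0771, 0, 0 and 0 at ZT12 (adjusted p = 0.00293). Hspg2, which codes for perlecan (-0.45 ± 0.11, adjusted p = 0.00474), Col14a1, a collagen that sits on the fibril surface (-2.17 ± 0.58, adjusted p = 0.00858), Fbn1 (-0.75 ± 0.20, adjusted p = 0.0087) and Col6a3 (-0.80 ± 0.22, adjusted p = 0.0101) complete the 8 with the smallest p. Replicate 6 at ZT12 had Col14a1 at 0.0116, near the offset of 0.01. On log2(FPKM + 1) the Col14a1 change was -0.63 (adjusted p = 0.0321). Of the list of other matrix proteins, 0 of 27 rose and 8 fell.

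The median change under adrenaline was -0.75 over the 41 and -0.61 over the 25 never at 0, and 0.02 over all genes. Without replicate 4 at ZT0 6 members passed, and without replicate 7 at ZT12 8 did. Calls lost in this way were Col14a1 (without replicate 4 at ZT0 or 6 at ZT12, adjusted p = 0.072 to 0.0881), Fbn1 (without replicate 4 at ZT0 or 7 at ZT12, 0.068 to 0.081) and Col6a3 (without replicate 7, 0.0659). With only the 2 groups in the model, 3 members and 9.44% of all genes passed. Endothelial markers had 0 of 10 higher and 1 lower, and summed to 154 to 168 FPKM at ZT0 and 175 to 257 at ZT12, higher without overlap. Schwann cell markers had 3 of 7 lower, and all 8 in the table summed to 36.2 to 50.5 at ZT0 and 26.5 to 33.0 at ZT12, lower without overlap. Their part in the result was not tested.

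Dexamethasone gave rises as well as falls. From ZT0 to ZT12, 8 members rose and 5 fell, where 27.8% of all genes passed, 14.7% higher and 13.2% lower. Collagen VI was among the risers, with Col6a3 at 1.47, 0.856, 0.684 and 0.926 FPKM at ZT0 and 2.55, 1.52, 2.68 and 1.64 at ZT12 (1.10 ± 0.22, adjusted p = 0.000151). Col6a1 rose as well (0.88 ± 0.25, adjusted p = 0.0069). Sparc, a collagen-binding glycoprotein also called osteonectin, read 7.02, 0, 0 and 4.95 at ZT0 and 14.0, 7.86, 20.3 and 2.37 at ZT12 (adjusted p = 0.000487). Tnmd, the tendon membrane protein tenomodulin, was listed at 0 in all 4 libraries at ZT0 and read 0.497, 0.105, 1.43 and 0 at ZT12 (adjusted p = 0.00211). Loxl1, a second crosslinking enzyme, and the proteoglycan Lum also rose, as did Postn and Igfbp7.

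The 5 that fell under dexamethasone were Col4a1, Serpinh1, Nid1, Lamc1 and Col5a3. Col4a1 was above 0 in all 4 libraries at ZT0 and in 1 of 4 at ZT12, at the values given above (adjusted p = 0.000123). Serpinh1 read 8.96, 11.0, 7.30 and 10.9 at ZT0 and 4.66, 2.33, 8.52 and 4.30 at ZT12 (-1.07 ± 0.25, adjusted p = 0.000855), with 1 ZT12 library above the lowest of ZT0. Changes were smaller for Nid1, the basement membrane linker nidogen-1 (-0.50 ± 0.11, adjusted p = 0.000901), the laminin chain Lamc1 (-0.36 ± 0.09, adjusted p = 0.00249) and Col5a3 (-0.87 ± 0.23, adjusted p = 0.00369). Among the 25 members never at 0, 4 rose and 4 fell, and the median change was -0.17 for these and 0.00 for the 41. Of 9 fibroblast markers tested 3 rose and 0 fell. With Dpp4, a 10th marker that did not pass the filter on low values but is counted in every fibroblast sum given here, the summed level was 267 to 309.5 FPKM at ZT0 against 234 to 292 at ZT12, and their part in these changes was not tested. With only the 2 groups in the model 6 members and 20.7% of all genes passed. Of these 6 members 1 was higher at ZT12 and 5 were lower, so most of the rises were not called in that model. Among the risers with a library at 0, the adjusted p there was 0.185 for Sparc, 0.0756 for Tnmd, 0.0948 for Postn and 0.438 for Igfbp7.

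In RE-RE sham 2 members rose and none fell, where 10.8% of all genes passed, 5.73% higher and 5.03% lower. Timp3 read 10.7, 9.77, 8.44 and 11.9 FPKM at ZT0 and 15.6, 16.4, 15.7 and 14.9 at ZT12 (0.62 ± 0.10, adjusted p = 4.86e-05), without overlap, as in WT sham. Ccn2 read 0.992, 1.03, 2.65 and 0.728 at ZT0 and 1.11, 4.99, 2.43 and 5.76 at ZT12, with overlap (1.31 ± 0.40, adjusted p = 0.0256). Its call was lost without any 1 of 5 libraries (replicates 1, 2 and 4 at ZT0, 6 and 8 at ZT12; adjusted p = 0.0657 to 0.145), after which 1 member was left where the library was replicate 1, 2, 6 or 8. With only the 2 groups in the model, 1 member and 3.95% of all genes passed. Col5a3, which fell in all 4 WT conditions, read 9.50, 11.4, 13.8 and 11.9 at ZT0 and 9.39, 12.2, 11.4 and 9.57 at ZT12 here (-0.13 ± 0.23, adjusted p = 0.808).

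RE-RE ADX had no call among the 41 by limma, though 1 was higher and 2 lower at an unadjusted p under 0.05, where 0.775% of all genes passed, 0.592% higher and 0.183% lower. Without a test, 6 members were lower at ZT12 in every library than in any at ZT0 and none was higher, where 3.02% of all genes were lower in this way and 6.27% higher. Timp3 read 10.9, 12.9, 12.2 and 10.7 at ZT0 and 14.8, 11.3, 12.8 and 16.0 at ZT12 (0.22 ± 0.10, adjusted p = 0.391). Sparc read 226, 258, 212 and 236 at ZT0 and 209, 208, 211 and 174 at ZT12 (adjusted p = 0.981). The difference of time effects between RE-RE and WT mice was not tested.

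**Figure D3:**
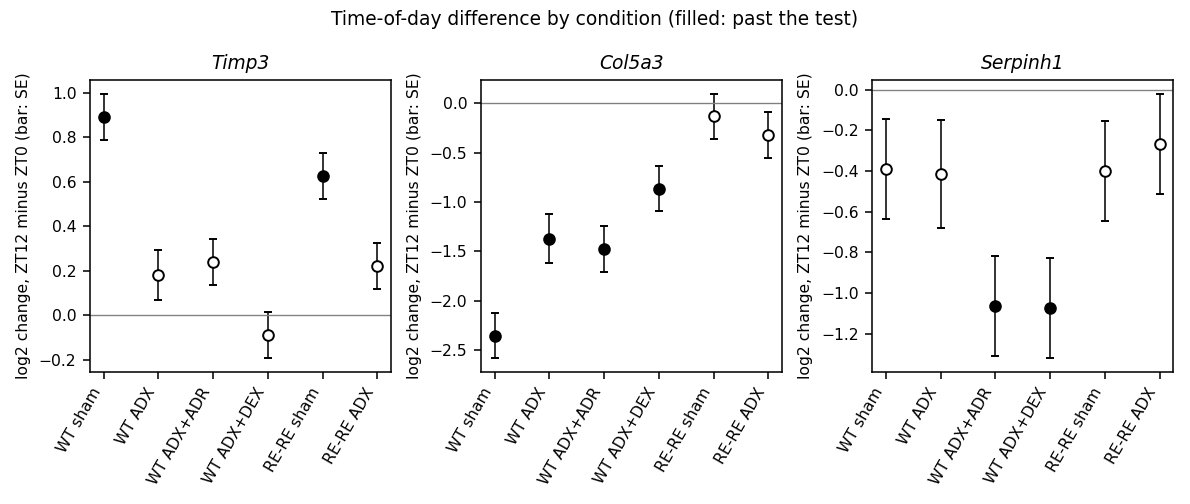
Log2 change from ZT0 to ZT12 (± SE) of Timp3, Col5a3 and Serpinh1 in the 6 conditions, with filled points for changes past the test. Timp3 is above 0 and filled in both sham conditions, and Col5a3 is below 0 and filled in the 4 WT conditions.

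After removal of the adrenals in WT mice 14 of the 41 members were higher at ZT0 and none was lower, where 32.0% of all genes passed, 12.6% higher and 19.4% lower. Collagen VI and the basement membrane led these changes. Col6a2 read 3.30, 4.92, 8.03 and 5.82 FPKM in WT sham and 12.9, 13.3 and 14.1 in WT ADX (1.35 ± 0.26, adjusted p = 0.00014). Col6a1 read 8.54, 11.0, 18.2 and 13.3 in sham against 21.9, 24.8 and 30.9 (1.06 ± 0.27, adjusted p = 0.00271), and Col6a3 3.14, 3.78, 6.31 and 4.75 against 7.43, 9.36 and 10.4 (1.05 ± 0.23, adjusted p = 0.000772). All 3 chains were higher in every ADX library than in any sham library. Among 10 basement membrane genes 5 rose, namely Lamc1 (0.54 ± 0.10, adjusted p = 6.88e-05), Nid2 (1.09 ± 0.24, adjusted p = 0.000598), Nid1 (0.49 ± 0.12, adjusted p = 0.00247), Hspg2 (0.44 ± 0.12, adjusted p = 0.0044) and Lamb1. Lamc1 went from 13.8 ± 1.09 to 20.0 ± 0.704 FPKM, and Nid2 read 2.92, 2.63, 3.04 and 3.35 in sham against 5.72, 7.41 and 5.96.

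Fibrillar collagens and their helpers gave fewer calls at ZT0. Col3a1 rose (1.18 ± 0.39, adjusted p = 0.0189) with overlap, and Col5a3 and the chaperone Serpinh1 rose without it. Serpinh1 read 31.9, 38.8, 43.3 and 39.0 in WT sham and 56.6, 80.1 and 67.8 in WT ADX (0.83 ± 0.27, adjusted p = 0.0157). Fbn1 (0.67 ± 0.22, adjusted p = 0.0152), Timp2, a second metalloproteinase inhibitor, and Fmod, at 0, 5.58, 6.58 and 0 against 3.78, 13.1 and 16.6 (adjusted p = 0.0232), also rose. Col1a1 (adjusted p = 0.183), Fn1, which codes for fibronectin (0.60 ± 1.00, adjusted p = 0.687), Ccn2 (0.11 ± 0.43, adjusted p = 0.871), Timp3 (0.10 ± 0.11, adjusted p = 0.532), Thbs4 (adjusted p = 0.907) and Tnmd (1.81 ± 1.10, adjusted p = 0.213) did not pass.

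At ZT12 ADX gave 13 members that were higher than in sham and 5 that were lower, where 26.9% of all genes passed, 10.3% higher and 16.6% lower. Fbn1 read 0.831, 0.524, 0.804 and 0.534 FPKM in WT sham and 2.08, 1.58, 2.56 and 2.03 in WT ADX (1.61 ± 0.20, adjusted p = 2.27e-07), and Col5a3 1.49, 0.473, 1.41 and 1.40 against 4.07, 2.43, 4.15 and 3.72 (1.68 ± 0.23, adjusted p = 1.24e-06). Both genes fell from ZT0 to ZT12 in WT sham, and all ADX libraries lay above all sham libraries. Hspg2 (0.57 ± 0.11, adjusted p = 0.000201), Lamc1 (0.45 ± 0.09, adjusted p = 0.000375), Lamb1 (0.91 ± 0.19, adjusted p = 0.000437), Col6a2 (1.09 ± 0.24, adjusted p = 0.000901) and Col6a3 (0.96 ± 0.22, adjusted p = 0.00112) rose, together with Nid1, Nid2, Col4a2, Col6a1, Serpinh1 and Col3a1 (1.00 ± 0.36, adjusted p = 0.0359).

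The 5 members that were lower after ADX at ZT12 came 1 each from 5 roles. Timp3 read 34.9, 26.3, 30.6 and 31.7 in WT sham and 20.1, 20.6, 20.1 and 19.6 in WT ADX (-0.61 ± 0.10, adjusted p = 3.53e-05). Dcn read 84.1, 67.5, 75.6 and 81.8 in sham and 67.4, 49.1, 57.5 and 57.5 after ADX (-0.42 ± 0.15, adjusted p = 0.0378). Pdgfra (-0.44 ± 0.17, adjusted p = 0.0448), Tnxb, the matrix glycoprotein tenascin-X (-0.43 ± 0.14, adjusted p = 0.0204), and Lamb2 by a small amount (-0.17 ± 0.07, adjusted p = 0.0448) completed them. All but Pdgfra were lower in every ADX library. WT sham and WT ADX animals differed in age without overlap, at 9 to 11 and 12 to 15 weeks at ZT0 and 10 to 12 and 13 to 17 at ZT12. Age and surgery therefore cannot be told apart between these groups at either time. With age as a covariate Timp3 alone of these 5 still passed, while the adjusted p was 0.282 for Dcn, 0.401 for Pdgfra, 0.259 for Tnxb and 0.247 for Lamb2.

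Some of the most abundant members stood apart in their libraries but not in the test. At ZT0 the libraries of Col4a1 lay at 53.5 to 62.6 FPKM in sham and 98.0 to 120.3 after ADX, and at ZT12 at 31.2 to 36.2 and 73.0 to 96.2, with an adjusted p of 0.671 and 0.501. At ZT0 Sparc read 63.4, 101, 125 and 89.5 in sham against 163, 218 and 226, and Igfbp7, an insulin-like growth factor binding protein, 72.3, 78.3, 83.8 and 70.3 against 155, 171 and 156. For each of these the 2 groups did not overlap. The model estimates 1 spread per gene over all 12 groups, and for these 3 it includes the dexamethasone values near or at 0. For Col4a1 it also includes WT ADX+ADR at ZT12, which read 48.5, 34.2, 0 and 24.8. In a model of the groups compared alone, the adjusted p at ZT0 was 0.00322 for Col4a1, 0.0228 for Sparc and 0.00129 for Igfbp7, and at ZT12 0.000251, 0.00207 and 0.000604.

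The median change after ADX was 0.74 at ZT0 and 0.58 at ZT12 over the 41, 0.67 and 0.46 over the 25 never at 0, and -0.02 over all genes at both times. Enzymes of collagen synthesis outside the 41 had 9 of 16 higher and 2 lower at ZT0, among them the lysyl hydroxylase Plod1 (0.44 ± 0.08, adjusted p = 3.34e-05) and the procollagen protease Adamts2 (1.17 ± 0.21, adjusted p = 5.62e-05), but 2 higher and 2 lower at ZT12. Other matrix proteins had 8 of 27 higher and 0 lower at ZT0, and 3 in each direction at ZT12. The TGF-beta pathway, a main driver of matrix genes, had 7 of 18 higher and 1 lower at ZT0, and 3 and 2 at ZT12. Tgfb1, one of its ligands, rose at both times (0.76 ± 0.18, adjusted p = 0.00112, and 0.74 ± 0.16, adjusted p = 0.000805).

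Markers of other cells moved beside these genes. Of 10 endothelial markers 7 were higher and 1 lower after ADX at ZT0, and 8 and 1 at ZT12. Their summed level at ZT0 was 169.6 to 188 FPKM in sham libraries and 226 to 279.8 in ADX libraries, which did not overlap, and at ZT12 the sums were 143 to 154 and 222 to 233. Macrophage markers had 5 of 10 higher at ZT0 and 2 higher and 1 lower at ZT12, with sums of 27.3 to 36.8 and 37.1 to 81.8 at ZT0. Fibroblast markers had 2 of 9 higher and 1 lower at ZT0, 0 and 1 at ZT12, and with Dpp4 all 10 summed to 160.2 to 225 and 162 to 202 at ZT0. The part of these cells in the result was not tested.

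Single libraries and the 7 that share few values moved these counts. At ZT0 8 members passed without replicate 1 of WT sham, and Col3a1 was lost without it or without replicate 3 of WT ADX (adjusted p = 0.0921 to 0.135). At ZT12 Col3a1 was lost without replicate 5 or 6 of WT sham or 4 or 6 of WT ADX (0.0784 to 0.12). Without the 7 libraries 9 members passed at ZT0 in place of 14, and 11 at ZT12 in place of 18, beside 22.8% and 19.8% of all genes.

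The same surgery in RE-RE mice gave 2 calls by limma at ZT0 and 0 at ZT12, where 1 member was higher and 0 lower at an unadjusted p under 0.05. At ZT0 both were higher after ADX, where 5.45% of all genes passed, 1.56% higher and 3.89% lower. At ZT12 5.32% of all genes passed, 1.77% higher and 3.55% lower. Ccn2 read 0.992, 1.03, 2.65 and 0.728 FPKM in RE-RE sham and 5.45, 6.05, 4.19 and 5.74 in RE-RE ADX (2.15 ± 0.40, adjusted p = 0.00217), without overlap. Dcn read 65.2, 86.6, 90.9 and 73.4 in sham and 131, 118, 95.9 and 118 after ADX (0.55 ± 0.15, adjusted p = 0.0287). Col1a1 was at 128 ± 48.0 in sham and 187 ± 24.1 in ADX at ZT0 and at 95.8 ± 6.35 and 159 ± 19.9 at ZT12 (adjusted p = 0.912 and 0.883). At ZT12 12 members were higher in every ADX library than in any sham library and none was lower, where 5.58% of all genes were higher in this way and 6.63% lower.

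These counts depended on the model. With only the 2 groups compared, 0 members passed at ZT0 and 11 at ZT12, where 0.0333% and 2.26% of all genes did, among the 11 Col1a1 (adjusted p = 0.0177), Col3a1 (0.0258) and Postn (0.00912). Dcn at ZT0 was lost without replicate 1 or 4 of RE-RE sham or 1, 2 or 4 of RE-RE ADX (adjusted p = 0.066 to 0.138), which left 1 member, and both were lost without the 7 libraries, 3 of which belong to RE-RE groups at ZT0, where 0.583% of all genes passed. Median changes were 0.32 at ZT0 and 0.23 at ZT12 over the 41. Of 10 endothelial markers limma called 0 at either time, with 1 at ZT0 and 3 at ZT12 at an unadjusted p under 0.05, and they summed to 142 to 173 FPKM in RE-RE sham and 158 to 170.2 in RE-RE ADX at ZT0.

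The effect of ADX, averaged over both times, differed between RE-RE and WT mice for 11 members by a test of the difference, 9 of them lower and 2 higher in RE-RE. Of all genes 22.5% passed, 8.63% lower and 13.8% higher. The lower ones were Fbn1 (-1.01 ± 0.20, adjusted p = 0.000425), Col5a3 (-1.03 ± 0.23, adjusted p = 0.00152), Lamc1 (-0.38 ± 0.09, adjusted p = 0.00312), Col6a2 (-0.98 ± 0.25, adjusted p = 0.0039), Hspg2 (-0.41 ± 0.11, adjusted p = 0.00733), Col6a3 (-0.79 ± 0.22, adjusted p = 0.00906), Nid2 (-0.72 ± 0.22, adjusted p = 0.0178), Nid1 and Lamb1, of which 5 are basement membrane genes. Ccn2 (1.84 ± 0.41, adjusted p = 0.00111) and Dcn (0.44 ± 0.16, adjusted p = 0.038) were the higher ones. Endothelial markers had 7 of 10 lower and 1 higher in the same test, and their part was not tested. The count was 5 without the 7 libraries, where 9.78% of all genes passed, and a model of only these 8 groups gave 18, where 24.0% did. Ages of sham and ADX animals did not overlap at either time in WT mice but did in RE-RE mice. Genotype and this age difference therefore cannot be fully told apart in this test. With age as a covariate Dcn did not pass (adjusted p = 0.0934). Nnt was listed at 0 in every WT ADX library and in no RE-RE library, and its part was not tested.

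**Figure D4:**
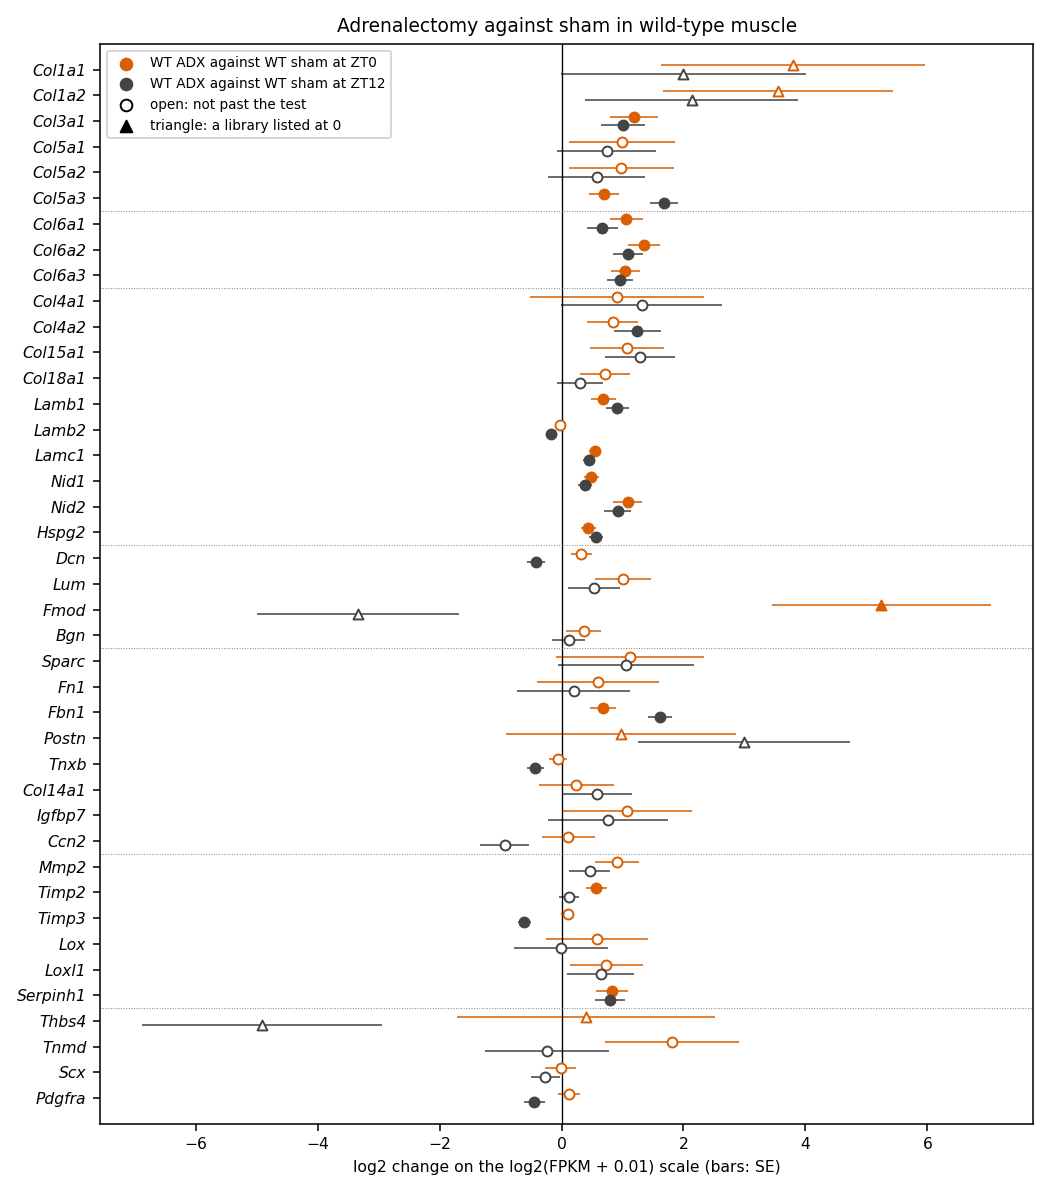
Log2 change after ADX in WT mice (± SE) of all 41 members at ZT0 and ZT12, ordered by role. Filled points passed the test, open points did not, and triangles mark members with a library listed at 0 in the groups compared. Filled points lie above 0 at ZT0 and on both sides of 0 at ZT12.

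Adrenaline was compared with ADX alone to show what changed on replacing it. At ZT0 4 members were higher and 8 lower in WT ADX+ADR, where 51.1% of all genes passed, 26.8% higher and 24.3% lower, so members were not called more often than genes at large. Basement membrane genes made up 6 of the 8 (Col4a2, Col15a1, Lamb1, Lamc1, Nid1 and Nid2). Lamc1 read 20.1, 20.7 and 19.3 FPKM in WT ADX and 14.7, 13.7, 14.0 and 15.1 in WT ADX+ADR (-0.48 ± 0.10, adjusted p = 0.000124), and Nid2 5.72, 7.41 and 5.96 against 3.56, 2.83, 3.58 and 3.24 (-0.94 ± 0.24, adjusted p = 0.00121). Neither pair of groups overlapped. Lamb1 (-0.83 ± 0.20, adjusted p = 0.000904), Serpinh1 (-0.98 ± 0.27, adjusted p = 0.00249) and Lox, at 2.03, 3.56 and 6.87 against 0, 0.148, 0.491 and 1.02 (adjusted p = 3.7e-05), fell too.

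The 4 members that were higher with adrenaline at ZT0 were Pdgfra (0.83 ± 0.18, adjusted p = 0.000236), Dcn (0.73 ± 0.17, adjusted p = 0.000409), Tnxb (0.51 ± 0.15, adjusted p = 0.00519) and Scx (0.82 ± 0.26, adjusted p = 0.00784). Dcn read 74.7, 92.5 and 121 in WT ADX and 126, 158, 137 and 216 in WT ADX+ADR, and each library with adrenaline was above each without it. Col1a1 (adjusted p = 0.962), Col3a1 (-0.65 ± 0.39, adjusted p = 0.165), Col4a1 (-1.37 ± 1.43, adjusted p = 0.438), Fn1 (-1.97 ± 1.00, adjusted p = 0.0972), Sparc (-0.70 ± 1.21, adjusted p = 0.65), Ccn2 (0.40 ± 0.43, adjusted p = 0.453), Timp3 (-0.23 ± 0.11, adjusted p = 0.0808) and Tnmd (-0.04 ± 1.10, adjusted p = 0.98) did not pass. Even so, Col4a1 lay at 98.0 to 120.3 in WT ADX and 36.6 to 44.3 with adrenaline. Sparc lay at 163 to 226 and 105 to 139, and Fn1 at 12.7 to 14.9 and 0.678 to 12.5. These and Timp3 were lower without overlap, while Ccn2 and Thbs4 were higher without overlap. For Col4a1 and Sparc the model's spread includes the dexamethasone values near or at 0. That of Col4a1 also includes an adrenaline library listed at 0 at ZT12. Fn1 was listed at 0 in every dexamethasone library, which adds no spread, while its adrenaline libraries varied widely.

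At ZT12 8 members were higher and 14 lower, where 53.0% of all genes passed, 27.7% higher and 25.3% lower. Of 10 basement membrane genes 9 fell, all but Lamb2. Col15a1, a collagen on the outer face of the basement membrane, read 21.4, 17.3, 23.5 and 20.8 FPKM in WT ADX and 9.62, 7.52, 0.157 and 4.91 in WT ADX+ADR (-2.89 ± 0.57, adjusted p = 6.12e-05). Col4a1 read 91.8, 73.0, 96.2 and 83.5 without and 48.5, 34.2, 0 and 24.8 with adrenaline (adjusted p = 0.00706), and this call was lost without replicate 7 of WT ADX+ADR, the library at 0 (0.0992). Serpinh1 (-1.62 ± 0.25, adjusted p = 1.24e-06), Lamb1 (-1.10 ± 0.19, adjusted p = 9.75e-06), Col14a1 (-3.36 ± 0.58, adjusted p = 8.96e-06) and Col3a1 (-1.30 ± 0.36, adjusted p = 0.00276) also fell. With adrenaline Col14a1 read 0.442, 0.0116, 0.208 and 0.667, so 1 library lay near the offset of 0.01. On log2(FPKM + 1) its change was -1.21 (adjusted p = 6.45e-06).

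The tendon genes Scx and Thbs4 went the other way at ZT12. Scx read 2.32, 1.14, 0.783 and 1.70 in WT ADX and 4.53, 4.51, 3.53 and 4.15 in WT ADX+ADR (1.59 ± 0.24, adjusted p = 1.05e-06). Thbs4 was listed at 0 in 3 of 4 WT ADX libraries and read 39.7, 18.1, 40.4 and 34.8 with adrenaline (adjusted p = 0.000141), and Fmod went from 3.90, 0, 0 and 0 to 28.5, 12.8, 30.5 and 23.5 (adjusted p = 2.64e-05). Pdgfra (1.15 ± 0.17, adjusted p = 6.36e-07), Dcn (0.90 ± 0.15, adjusted p = 7.75e-06), Ccn2 (1.57 ± 0.40, adjusted p = 0.00116), Lum (1.09 ± 0.43, adjusted p = 0.0306) and Postn rose as well. Of the other tendon genes, 5 of 8 rose and 1 fell at ZT12. Fn1 fell, from 10.6, 13.5, 6.75 and 6.07 to 3.72, 0, 0.494 and 5.01 (adjusted p = 0.000478). Among the 25 members never at 0, 13 passed in place of 22.

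The median change with adrenaline was -0.20 at ZT0 and -0.46 at ZT12 over the 41, and -0.18 and -0.17 over the 25 never at 0. Of 10 endothelial markers 7 were lower and 1 higher at ZT0, and 6 and 1 at ZT12, with sums of 226 to 279.8 FPKM without adrenaline and 154 to 168 with it at ZT0. At ZT12 those sums overlapped, at 222 to 233 and 175 to 257. Fibroblast markers had 1 of 9 higher at each time, and with Dpp4 all 10 summed to 162 to 202 and 259 to 395 at ZT0. Their part was not tested. The comparisons of ADX with sham in WT mice, of adrenaline with ADX and of dexamethasone with ADX share the 7 WT ADX libraries, so their results are not independent of each other.

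Dexamethasone against ADX alone gave the most calls in the study, for members as for all genes. At ZT0 5 members were higher and 30 lower, and at ZT12 9 and 29. Of all genes 68.9% passed at ZT0, 36.4% higher and 32.5% lower, and 66.3% at ZT12, 34.6% higher and 31.7% lower. All 6 fibrillar collagens, all 3 collagen VI chains and 9 of 10 basement membrane genes fell at both times, Lamb2 being the exception. Timp3 (0.61 ± 0.11, adjusted p = 1.03e-05 at ZT0, and 0.34 ± 0.10, adjusted p = 0.00442 at ZT12), Pdgfra (0.97 ± 0.18 and 1.36 ± 0.17), Scx (1.06 ± 0.26 and 1.91 ± 0.24), Ccn2 (1.29 ± 0.43, adjusted p = 0.00826, and 2.19 ± 0.40, adjusted p = 9.63e-06) and Tnxb (0.43 ± 0.15 and 0.80 ± 0.14) rose at both times. At ZT12 Dcn (0.99 ± 0.15, adjusted p = 6.62e-07), Fmod, Thbs4 and Postn rose as well. Thbs4 read 5.18, 0, 0 and 0 in WT ADX and 31.3, 17.9, 34.4 and 16.7 in WT ADX+DEX (adjusted p = 0.000137).

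Collagen VI shows the size of the fall in genes with no library at 0. Col6a1 read 21.9, 24.8 and 30.9 FPKM in WT ADX and 2.94, 2.44, 1.03 and 2.37 in WT ADX+DEX at ZT0 (-3.64 ± 0.27, adjusted p = 2.29e-14), and 19.7, 12.4, 18.2 and 14.4 against 5.31, 3.02, 5.08 and 2.49 at ZT12 (-2.07 ± 0.25, adjusted p = 4.77e-09). Sparc fell from 163, 218 and 226 to 7.02, 0, 0 and 4.95 at ZT0 (adjusted p = 6.89e-09), and from 174, 118, 175 and 139.8 to 14.0, 7.86, 20.3 and 2.37 at ZT12 (-4.13 ± 1.12, adjusted p = 0.00148). Fn1 read 12.7, 13.1 and 14.9 at ZT0 and 10.6, 13.5, 6.75 and 6.07 at ZT12 in WT ADX and was listed at 0 in all 8 dexamethasone libraries (adjusted p = 1.62e-11 and 1.66e-11). Tnmd fell at both times, but its call at ZT12 (adjusted p = 0.0305) was lost without replicate 4 or 6 of WT ADX or 6 or 8 of WT ADX+DEX (0.0684 to 0.3). Of the 25 members never at 0, 5 rose and 18 fell at ZT0, and 6 and 17 at ZT12. Their median change was -1.44 and -1.27, against 0.04 and 0.02 over all genes. Endothelial markers had 9 of 10 lower and 1 higher at ZT0, and 8 and 1 at ZT12, and fibroblast markers 6 of 9 lower and 1 higher at both times. Over all 10 fibroblast markers, with Dpp4, the summed level was nonetheless higher with dexamethasone, at 162 to 202 FPKM in ADX alone and 267 to 309.5 with the hormone at ZT0, and at 138 to 170.5 and 234 to 292 at ZT12, without overlap. Endothelial sums were lower without overlap, at 226 to 279.8 and 104 to 108 at ZT0 and 222 to 233 and 94.9 to 115 at ZT12. The part of these cells was not tested.

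Dexamethasone and adrenaline were injected by the same route and schedule, and their direct comparison gave 32 members lower and 2 higher in WT ADX+DEX at ZT0. Of all genes 48.6% passed, 23.5% lower and 25.1% higher. Col3a1, listed at 0 in all dexamethasone libraries, read 25.9, 49.1, 50.5 and 55.6 FPKM with adrenaline (adjusted p = 3.64e-26). Col6a3 read 6.87, 8.80, 8.57 and 9.56 with adrenaline and 1.47, 0.856, 0.684 and 0.926 with dexamethasone (-3.14 ± 0.22, adjusted p = 1.38e-14). Col6a1 read 16.7, 23.1, 22.9 and 26.4 against 2.94, 2.44, 1.03 and 2.37 (-3.42 ± 0.25, adjusted p = 6.73e-14), and Col6a2 9.52, 12.9, 11.5 and 14.7 against 2.15, 1.58, 1.06 and 1.54 (-2.96 ± 0.24, adjusted p = 1.14e-12). No dexamethasone library reached the lowest adrenaline library for any of these. Col15a1 was also at 0 in every dexamethasone library, against 10.2, 8.45, 11.0 and 9.85 with adrenaline (adjusted p = 5.44e-17).

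The fall took in every role. Lamb1 went from 3.42 ± 0.384 to 0.849 ± 0.239 FPKM (-2.03 ± 0.19, adjusted p = 2.97e-11), Fbn1 from 3.51 ± 1.23 to 0.870 ± 0.132 (-1.96 ± 0.20, adjusted p = 2.4e-10), and the libraries of Mmp2, the gelatinase that degrades basement membrane collagen, lay at 18.9 to 31.3 with adrenaline and 1.86 to 4.18 with dexamethasone (-3.17 ± 0.34, adjusted p = 6.2e-10). Col4a1 read 44.3, 36.6, 43.9 and 41.9 with adrenaline and 3.43, 2.76, 1.31 and 5.45 with dexamethasone (-3.85 ± 1.32, adjusted p = 0.0149). Sparc read 105, 121, 131 and 139 against 7.02, 0, 0 and 4.95 (adjusted p = 2.05e-08). Fn1 read 0.678, 6.90, 2.37 and 12.5 with adrenaline (adjusted p = 1.34e-09) and Tnmd 3.72, 6.14, 4.74 and 14.6 (adjusted p = 1.28e-09), and both were at 0 in all 4 libraries with dexamethasone. Col1a1 differed likewise (adjusted p = 2.43e-06). The Col1a1 value of replicate 1 with adrenaline, 28.8 FPKM, lay below the other 3 of 74.4 to 80.2.

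Only Timp3 and Lox were higher with dexamethasone at ZT0. Timp3 read 14.8, 15.3, 14.3 and 16.1 with adrenaline and 21.4, 27.1, 27.0 and 34.5 with dexamethasone (0.84 ± 0.10, adjusted p = 1.69e-08), and Lox, whose groups overlapped, 0, 0.148, 0.491 and 1.02 against 1.46, 1.57, 0.693 and 3.69 (adjusted p = 0.000714). The 7 members that did not pass included Thbs4 (31.1, 46.5, 32.5 and 62.2 against 23.4, 24.2, 21.4 and 24.7), Scx (0.24 ± 0.24, adjusted p = 0.437), Pdgfra (0.13 ± 0.17, adjusted p = 0.544) and Ccn2 (0.89 ± 0.40, adjusted p = 0.0632). A call that misses the threshold does not show that the hormones act alike on these. Dcn was slightly lower (-0.37 ± 0.15, adjusted p = 0.0423) with overlapping groups.

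At ZT12 28 members were lower and 3 higher with dexamethasone, where 42.6% of all genes passed, 21.4% lower and 21.2% higher. Col3a1 (adjusted p = 3.74e-24), Col15a1 (2.78e-14), Col6a1 (-1.87 ± 0.25, adjusted p = 1.35e-07) and Lamb1 (-1.74 ± 0.19, adjusted p = 1.81e-09) were again lower in every library. Col1a1, at 44.4, 0, 21.9 and 7.67 with adrenaline and 0 in all 4 dexamethasone libraries, shared a value at 0 with 1 adrenaline library (adjusted p = 0.00108). Fn1 did too (adjusted p = 3.31e-06), and Col4a1 (adjusted p = 1.87e-05). Sparc read 143, 82.2, 48.9 and 94.1 with adrenaline and 14.0, 7.86, 20.3 and 2.37 with dexamethasone (-3.33 ± 1.12, adjusted p = 0.0153), and its call was lost without replicate 8 of WT ADX+DEX (adjusted p = 0.0705). Timp3 (0.51 ± 0.10, adjusted p = 0.000117), Tnxb (0.58 ± 0.14, adjusted p = 0.000985) and Lox (adjusted p = 4.56e-09) were higher. Ccn2, Thbs4, Scx, Pdgfra, Dcn, Fmod, Bgn, Postn, Loxl1 and Lamb2 did not pass.

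The median change was -2.31 at ZT0 and -1.62 at ZT12 over the 41, and -1.36 and -0.73 over the 25 never at 0, of which 19 fell and 1 rose at ZT0 and 16 fell and 2 rose at ZT12. Enzymes of collagen synthesis fell in 10 of 16 at ZT0 and 9 at ZT12, with 1 higher at each time. They included Bmp1, which trims procollagen (-2.31 ± 0.18, adjusted p = 2.12e-13 at ZT0), and P3h1, a prolyl hydroxylase (-0.65 ± 0.08, adjusted p = 4.14e-08 at ZT12). Other matrix proteins fell in 17 of 27 at ZT0 and 10 at ZT12, with 1 and 0 higher, led by Sparcl1, a relative of Sparc (-1.50 ± 0.10, adjusted p = 1.86e-15, and -0.86 ± 0.10, adjusted p = 4.22e-09). In the TGF-beta pathway 4 of 18 were higher and 5 lower at ZT0, and 4 and 6 at ZT12, with Ltbp4, which holds the latent growth factor in the matrix, lower at both (-1.63 ± 0.09, adjusted p = 2.69e-17, and -1.01 ± 0.09, adjusted p = 1.81e-11). Proteases and inhibitors fell in 6 of 9 and 5 of 9, with 1 and 0 higher.

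Cell markers fell beside these genes in part. Of 9 fibroblast markers 8 were lower at ZT0 and 5 at ZT12 and none was higher, among them Clec3b (-1.88 ± 0.19, adjusted p = 1.74e-10). The summed FPKM of all 10, Dpp4 included, overlapped between the groups, at 259 to 395 with adrenaline and 267 to 309.5 with dexamethasone at ZT0. Endothelial markers had 8 of 10 lower and 1 higher at ZT0, and 6 and 1 at ZT12, with sums of 154 to 168 and 104 to 108 at ZT0 and 175 to 257 and 94.9 to 115 at ZT12. Macrophage markers had 4 of 10 lower at ZT0 and 6 at ZT12, while mural cell markers had 3 of 9 higher and 2 lower at ZT0 and 4 and 0 at ZT12. No marker of these 4 lists was listed at 0 in all libraries of a group. The part of these cells in the result was not tested.

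**Figure D5:**
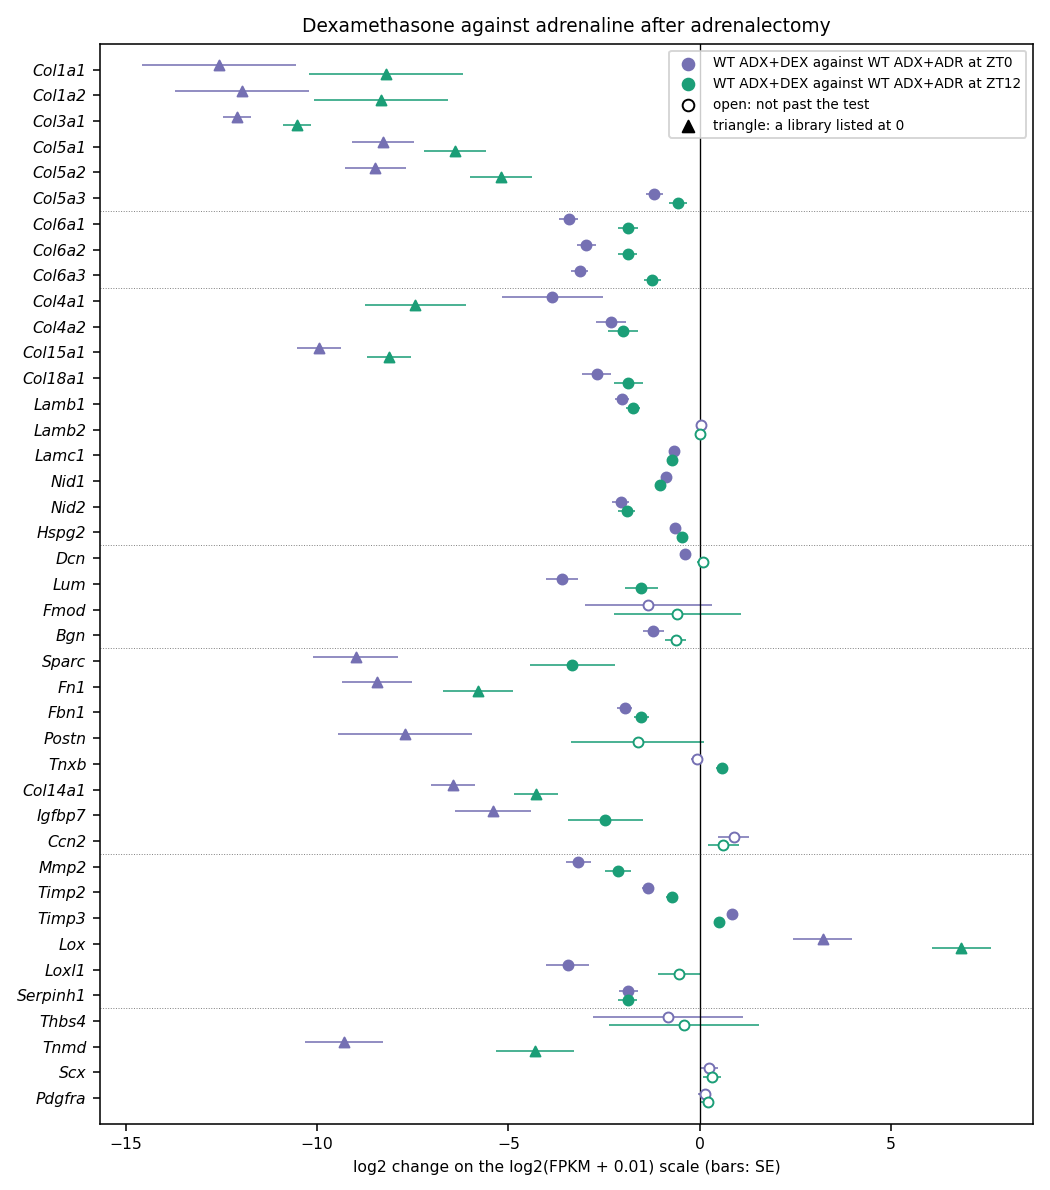
Log2 change of WT ADX+DEX against WT ADX+ADR (± SE) for all 41 members at ZT0 and ZT12, ordered by role. Filled points passed the test, open points did not, and triangles mark members with a library listed at 0, whose size on this scale is not a fold. Timp3 and Lox lie above 0 and filled at both times.

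RE-RE sham was compared with WT sham, which carries Bmal1 in all tissues, to ask what differs when the gene is present in brain and muscle and blocked elsewhere. At ZT0 11 members were higher and 2 lower in RE-RE, where 24.1% of all genes passed, 12.5% higher and 11.6% lower. Col6a2 read 3.30, 4.92, 8.03 and 5.82 FPKM in WT and 9.58, 12.8, 17.8 and 12.0 in RE-RE (1.28 ± 0.24, adjusted p = 0.000191), and Fbn1 2.08, 2.15, 3.28 and 2.86 against 3.89, 5.64, 6.70 and 4.79 (1.01 ± 0.20, adjusted p = 0.000296), both without overlap. Col5a3 (1.04 ± 0.23, adjusted p = 0.00106), Col6a1 (1.00 ± 0.25, adjusted p = 0.00326), Col6a3 (0.91 ± 0.22, adjusted p = 0.00211), Timp2 (0.78 ± 0.16, adjusted p = 0.000591), Mmp2 (1.30 ± 0.34, adjusted p = 0.00451) and Col3a1 (1.35 ± 0.36, adjusted p = 0.00595) were higher too, as were Fmod, Postn and Pdgfra. Timp3 was lower, at 10.7, 9.77, 8.44 and 11.9 against 16.7, 16.8, 16.3 and 16.3 in WT (-0.71 ± 0.10, adjusted p = 5.2e-06). Ccn2 was lower as well, at 0.992, 1.03, 2.65 and 0.728 against 4.12, 5.28, 5.24 and 6.16 (-2.11 ± 0.40, adjusted p = 0.000182).

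At ZT12 15 members were higher and 2 lower in RE-RE sham, where 19.3% of all genes passed, 9.22% higher and 10.1% lower. Col5a3 read 1.49, 0.473, 1.41 and 1.40 FPKM in WT and 9.39, 12.2, 11.4 and 9.57 in RE-RE (3.27 ± 0.23, adjusted p = 1.64e-13), and Fbn1 0.831, 0.524, 0.804 and 0.534 against 3.61, 4.17, 4.37 and 4.69 (2.65 ± 0.20, adjusted p = 1.26e-12). Both fell from ZT0 to ZT12 in WT sham. Postn was listed at 0 in all WT libraries and read 15.7, 10.1, 11.7 and 13.1 in RE-RE (adjusted p = 4.94e-05). Col6a2 (1.71 ± 0.24, adjusted p = 2.72e-06), Col6a3 (1.42 ± 0.22, adjusted p = 9.9e-06), Col3a1 (1.83 ± 0.36, adjusted p = 0.000374), Scx (1.38 ± 0.24, adjusted p = 6.77e-05) and Mmp2 (1.41 ± 0.34, adjusted p = 0.00255) were higher, and Timp3 (-0.98 ± 0.10, adjusted p = 7.78e-09) and Tnxb (-0.57 ± 0.14, adjusted p = 0.00356) lower. Col1a1, at the values given above, passed narrowly (adjusted p = 0.0498), and was lost without any 1 of 6 libraries (WT sham replicate 5 or 6, or any RE-RE sham replicate; adjusted p = 0.0546 to 0.305).

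Without a test, 13 members were higher in every RE-RE library than in any WT library at ZT0 and 30 at ZT12, and 2 and 3 were lower. Of all genes, 10.3% were higher in this way at ZT0 and 10.7% at ZT12, and 9.71% and 11.8% lower. Thbs4 read 3.24, 0, 8.58 and 15.3 in WT and 25.6, 33.3, 45.9 and 53.9 in RE-RE at ZT12 (adjusted p = 0.0848), and Tnmd 1.29, 0.338, 1.60 and 2.22 against 5.70, 5.17, 8.69 and 11.3 (2.70 ± 1.02, adjusted p = 0.0567). Neither pair overlapped, and neither passed. None of 10 basement membrane genes passed at either time by limma, with 1 at ZT0 and 3 at ZT12 at an unadjusted p under 0.05. Col4a1 was at 57.5 ± 4.66 FPKM in WT and 70.8 ± 15.1 in RE-RE at ZT0 (adjusted p = 0.905). Its libraries lay at 31.2 to 36.2 in WT and 58.4 to 69.4 in RE-RE at ZT12, higher without overlap. Nid2 was lower without overlap at ZT12, at 2.59 to 3.18 in WT and 1.88 to 2.29 in RE-RE. The median change of the 10 was 0.06 at ZT0 and 0.16 at ZT12. Sparc (0.97 ± 1.12, adjusted p = 0.595) and Fn1 (0.71 ± 0.93, adjusted p = 0.645) did not pass at ZT12 either.

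The median change over the 41 was 0.66 at ZT0 and 0.92 at ZT12, 0.47 and 0.64 over the 25 never at 0, and -0.01 and -0.01 over all genes. Collagen synthesis enzymes had 8 of 16 higher and 0 lower at ZT0 and 6 and 1 at ZT12, with Adamts2 higher at both (1.68 ± 0.19, adjusted p = 6.35e-08, and 1.32 ± 0.19, adjusted p = 5.55e-06). Other matrix proteins had 9 of 27 higher at both times, with 2 and 3 lower, and proteases and inhibitors 4 and 7 of 9 with 0 lower. Within the TGF-beta pathway 4 of 18 were higher and 3 lower at ZT0, and 3 and 5 at ZT12, where the ligand Tgfb2 was higher (0.99 ± 0.12, adjusted p = 7.19e-08) and the inhibitor Smad7 lower (-1.11 ± 0.14, adjusted p = 4.9e-07). Other tendon genes had 3 of 8 higher and 1 lower at ZT0 and 4 and 1 at ZT12.

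Macrophage markers had 3 of 10 higher at ZT0 and 4 at ZT12 in RE-RE sham with 0 lower, and summed to 23.3 to 25.9 FPKM in WT and 23.5 to 53.9 in RE-RE at ZT12. Fibroblast markers had 1 of 9 higher at each time, with 1 and 0 lower, and the sums over all 10, with Dpp4, were 160.2 to 225 and 169 to 235 at ZT0. Mural cell markers had 1 of 9 higher at both times with 4 and 6 lower. The part of these cells was not tested. The WT sham libraries are the same as in the comparison with WT ADX. On log2(FPKM + 1), 21 members and 25.8% of all genes passed at ZT0, in place of 13 members, including Col1a1 (adjusted p = 0.0101) and Thbs4 (0.00204). Without the 7 libraries 8 members and 11.1% of all genes did. With only the 2 groups in the model, 29 members passed at ZT12 in place of 17, and 15.2% of all genes.

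Members differed in how closely they followed each other over the 12 groups. Against the mean profile of the 25 members never at 0, each gene standardised over the 12 group means, Pearson's r was 0.959 for Col1a1, Mmp2 and Col6a2. It was 0.03 for Dcn, 0.02 for Scx, -0.06 for Pdgfra and 0.2 for Lamb2, and -0.784 for Timp3, -0.632 for Tnxb and -0.434 for Ccn2. These r describe 12 group means that share libraries, depth and, for the 25, the profile they were set against. Outside the 41, the 10 tested genes most like this profile were Sirpa, Nsg1, Ctsh, Lpcat1, Pcolce, Matn2, Laptm5, Chpf, Myof and Sash1, with r from 0.952 to 0.977. Pcolce, which codes for an enhancer of procollagen processing, is the one of these with a collagen role by name.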

How the data were processed

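The authors deposited 1 table of log2 values for 13500 genes in 47 libraries, computed from FPKM; per the labels' protocols, about 25 M single-end reads of 60 bases were sequenced per library. The submitters' processing notes list edgeR 3.30.0, the read counter featureCounts 1.6.2, the aligner HISAT2 2.1.0, the trimmer Trim Galore 0.5.0, FastQC 0.11.8 and GRCm38, with no role or order. The lowest log2 value of the deposited table, -6.64, equals log2 of an offset of 0.01 and is read here as 0 FPKM, an assumption drawn from the values.

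The 41 members, the other lists and the tests were chosen with earlier results of these data known. Of the table's IDs 13441 matched a GENCODE symbol. Genes with at least 1 FPKM in at least 3 libraries, 12000, entered limma 3.58.1 (R 4.3.3) with a trended prior, on the log2(FPKM + 0.01) scale. Changes of genes with values near 0 depend on this offset and can be far larger than on log2(FPKM + 1). All 12 groups shared 1 fit without covariates, and 20 contrasts were tested, each adjusted by Benjamini-Hochberg over all genes tested and called at 0.05. Numbers in parentheses after a gene are limma's log2 change ± SE and adjusted p. No log2 change is given where a library of the groups compared is listed at 0, because it would depend on the offset. The adjusted p and calls of such members come from the same values and depend on the offset too. For Col14a1, dexamethasone against adrenaline at ZT12, the adjusted p was 1.41e-07 here and 0.124 on log2(FPKM + 1). Of the 159 named results, 4 no longer passed on that scale. On simulated data of the comparison of ADX with sham in WT mice at ZT0, with 12000 genes, 86 of 100 genes changed by 1 log2 unit were recovered, 94 of 100 changed by 2, and 8 unchanged genes were called. For dexamethasone against adrenaline at ZT0 these counts were 78, 92 and 10. In the data 32.0% of all genes passed in the former comparison and 48.6% in the latter, far more than were changed here. Whether these counts hold for such shares, or for members with values listed at 0, was not tested.

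Depth was estimated from the value of 1 read in 68 genes listed at 0 in at least 30 libraries. For each library a depth was chosen at which most of their low values were whole reads within 0.05. The median of 100% whole at the chosen depth follows from that choice and is no test of it. In the other genes examined, 7.92% to 12.9% of values were whole reads, near the 10% that chance gives, so no counts were recovered. Values are given for the 8 members of smallest adjusted p per comparison, where as many passed, for 9 standing ones (Col1a1, Col3a1, Col4a1, Fn1, Sparc, Ccn2, Timp3, Thbs4 and Tnmd), and for at most 2 genes of each other list. Members named beyond this rule, to complete a count or a role, were chosen after their values were seen. Alternatives were log2(FPKM + 1), no filter, equal medians, only the groups compared, age as a covariate, a replicate block and leaving out each library. Added after seeing the data were leaving out the 7 libraries that share few values with their group, and counting only members never at 0. Python 3.11.15 (numpy 2.4.6, pandas 2.3.3, matplotlib 3.10.9) was used for summaries and plots.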

Additional observations from a re-analysis of the deposited data

Results flagged for a closer look

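Among the 9 standing members, 92 groups of 4 libraries were examined for a library far from the other 3, and 5 had one. Chance gives about 1 in 20. With adrenaline at ZT0, Col1a1 was 28.82 FPKM in 1 library against 74.35 to 80.16 in the others. With dexamethasone at ZT12, Col4a1 was 0.4559 in 1 library and listed at 0 in the others. In RE-RE ADX at ZT12 Sparc was 174 in 1 library against 207.6 to 210.6. Ccn2 was 2.652 in 1 library of RE-RE sham at ZT0 against 0.7276 to 1.032, and Thbs4 was 5.182 in 1 library of WT ADX at ZT12 and listed at 0 in the other 3.

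The change from ZT0 to ZT12 differed between WT ADX and WT sham for 1 member, Timp3. The change after ADX differed between RE-RE and WT mice for 11 members, namely Col5a3, Col6a2, Col6a3, Lamb1, Lamc1, Nid1, Nid2, Hspg2 and Fbn1, which were lower in RE-RE, and Dcn and Ccn2, which were higher.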

How the results depend on the processing

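Equal medians, no filter and age as a covariate left every total of members that passed within 1.5 times its value, and no named result changed direction under any alternative. Of 159 named results, 1 no longer passed with equal medians, 2 with no filter, 3 with age, 4 on log2(FPKM + 1), 16 without the 7 libraries and 33 in models of the groups compared alone. Within 1 direction, age took the members lower after ADX in WT mice at ZT12 from 5 to 1, and those higher in the difference in the effect of ADX from 2 to 1. A model of the groups compared alone took the members higher over time in WT ADX+DEX from 8 to 1, and left 5 lower. On log2(FPKM + 1), 21 members passed in RE-RE sham against WT sham at ZT0 in place of 13. With only the groups compared, counts over time became 0 (from 8) in WT ADX, 3 (from 15) in WT ADX+ADR, 6 (from 13) in WT ADX+DEX and 1 (from 2) in RE-RE sham. For ADX in RE-RE mice they became 0 (from 2) at ZT0 and 11 (from 0) at ZT12, for RE-RE against WT sham at ZT12 29 (from 17), and for the difference in the effect of ADX 18 (from 11). Without the 7 libraries they became 3 (from 6) over time in WT sham, 1 (from 2) over time in RE-RE sham, 9 (from 14) and 11 (from 18) for ADX in WT mice at ZT0 and ZT12, 0 (from 2) for ADX in RE-RE mice at ZT0, 8 (from 13) for RE-RE against WT sham at ZT0 and 5 (from 11) for the difference in the effect of ADX. Among members never at 0, 8 passed over time in WT ADX+DEX, 13 for adrenaline at ZT12, 23 at each time for dexamethasone against ADX, and 20 at ZT0 and 18 at ZT12 for dexamethasone against adrenaline.

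Leaving out 1 library at a time gave 4 to 10 members over time in WT ADX, 6 to 21 in WT ADX+ADR, 1 to 2 in RE-RE sham, 8 to 16 for ADX in WT mice at ZT0, 1 to 2 for ADX in RE-RE mice at ZT0, and 1 to 3 for the difference in time effect between WT ADX and WT sham. Deviations of same-numbered libraries of 2 groups from their group means correlated at -0.098 to 0.219, and 20 of 84 libraries correlated best with their own number. For ADX in WT mice these were 4 of 6 at ZT0 and 0 of 6 at ZT12. With 3 or 4 libraries per group, such correlations cannot show whether a shared number stands for a shared origin. With the replicate block, fitted on the groups compared, the counts became 0 (from 14) and 6 (from 18) for ADX in WT mice at ZT0 and ZT12, 0 (from 2) and 3 (from 0) in RE-RE mice, 7 (from 22) for adrenaline at ZT12, and 22 (from 13) and 27 (from 17) for RE-RE against WT sham. Of the 118 named results that this fit covers, 33 no longer passed with the block. Depth cannot settle what a value listed at 0 stands for, since abundant genes carry it, and groups of 3 or 4 libraries limit the precision of every change.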
